A study of Homo sapiens with 30 samples.

Results

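The genes described here are the PAF1 complex and 4 other factors that act on elongating RNA polymerase II, chosen by symbol from a list of 9: *PAF1*, *CTR9*, *LEO1*, *CDC73*, *RTF1*, *SUPT6H*, *SUPT16H*, *SSRP1* and *CDK9*. Of these, 8 had a row among the 737 genes of the deposited table, and *RTF1* had none. The values that carry the description are signed Scores in 9 comparisons of a pooled CRISPR-Cas9 knockout screen, in which each gene was targeted by several guide RNAs (gRNAs) and the abundance of those gRNAs was followed in growing cells.

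The screen was run in HLF and PLC/PRF/5, established human lines of hepatocellular carcinoma (HCC). In the format screen both lines were grown either as a 2D monolayer on tissue culture plastic or as 3D spheroids in methylcellulose medium on low-attachment plates, and were harvested at day 28. Labels state no treatment for these cells, but the names of the final libraries contain DMSO except for PLC/PRF/5 spheroids, so vehicle may have been present. In the inhibitor screen HLF spheroids were carried for 28 days with the vehicle DMSO or with SNDX-5613 (revumenib), a small molecule that blocks the contact between menin and MLL1. The initial libraries mark the start of selection. Labels put these initial libraries at day 0 except for PLC/PRF/5 spheroids, where no day is stated. In all there were 30 libraries in 10 groups of 3, and the labels do not say whether the 3 were separate cultures. All cells had been transduced with the same library and Cas9 vector, so the initial libraries are the background against which each screen was read. The labels give the SNDX-5613 dose as 5 µM, whereas the study's text gives another dose for this screen, and these sources were not reconciled.

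RNA polymerase II pauses soon after it starts a transcript. CDK9, the kinase of P-TEFb, releases it by phosphorylating the polymerase and the factors that hold it. The PAF1 complex then travels with the polymerase and recruits the enzymes that ubiquitinate histone H2B, while SPT6 (*SUPT6H*) and FACT (*SUPT16H* and *SSRP1*) take nucleosomes apart and put them back in its path. The PAF1 complex also binds MLL1, the methyltransferase that menin anchors to chromatin.

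A Score below 0 means that the gRNAs of a gene ranked low together (depleted, fewer cells), and a Score above 0 that they ranked high together (enriched, more cells). Its size is the negative log10 of MAGeCK's robust rank aggregation value, so it measures the evidence over the gRNAs of a gene and is not a fold change. A gene was called where its deposited false discovery rate (FDR) was under 0.05. The table holds 1 Score per gene and comparison and no value per library. As a yardstick, the difference between HLF spheroids with DMSO and HLF spheroids of the format screen had an SD of 1.50 over the 737 genes. These are spheroid screens of the same line, and they may share initial libraries, in which case the SD is too small.

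The gRNAs that cut *LEO1* and *CDC73* are shown because these subunits of the same complex had the most different Scores in HLF spheroids. Each is written 5′ to 3′ with the PAM, the bases next to the target that Cas9 needs, in capitals, and with its exact match in hg38.
LEO1 guide 1, chr15:51966354-51966376, minus strand, exon 2: ggagatgacagtgaggacgaGGG
LEO1 guide 2, chr15:51966237-51966259, minus strand, exon 2: tcagatgtagatcagcacagTGG
LEO1 guide 3, chr15:51962398-51962420, minus strand, exon 3: agaagcggatagtgacactgAGG
LEO1 guide 4, chr15:51959901-51959923, plus strand, exon 5: gggctctacactgagaaagtTGG
LEO1 guide 5, chr15:51953197-51953219, plus strand, exon 8: attgtggtcgccctgcagtgGGG
LEO1 guide 6, chr15:51951956-51951978, plus strand, exon 9: gtggcactgtccgtagagtgAGG
LEO1 guide 7, chr15:51949874-51949896, minus strand, exon 10: ggaacctgatcgatacgatgAGG
CDC73 guide 1, chr1:193125205-193125227, minus strand, exon 2: ttctacttacagctgcacgtCGG
CDC73 guide 2, chr1:193142040-193142062, plus strand, exon 7: acaactatcttacaaagcacAGG
CDC73 guide 3, chr1:193150333-193150355, minus strand, exon 9: cgtatctgttataggcagctGGG
CDC73 guide 4, chr1:193152423-193152445, plus strand, exon 10: tatgacactgaaatctgtaaCGG
CDC73 guide 5, chr1:193212426-193212448, minus strand, exon 13: aagcatggttattaaagaggTGG
CDC73 guide 6, chr1:193233063-193233085, plus strand, exon 14: aaagaccagatgcaaccaggGGG
CDC73 guide 7, chr1:193236288-193236310, plus strand, exon 15: ctgcatggcagttcaaaggtTGG

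All 7 gRNAs of *LEO1*, all 7 of *CDC73* and all 7 of *PAF1* cut inside coding exons of the canonical GENCODE transcript, and each had a single exact site with an NGG PAM in the 24 chromosomes. The *LEO1* cuts lay between 10.2% and 86.4% of the coding sequence, the *CDC73* cuts between 14.4% and 85.7%, and the *PAF1* cuts between 28.3% and 69.0%. GC content of the target ran from 45% to 60% for *LEO1*, from 30% to 50% for *CDC73* and from 45% to 65% for *PAF1*. Of the 7 *LEO1* cuts, 5 lay inside the span of *MAPK6*, which is annotated on the other strand, and 0 lay in one of its exons. On hg38 *PAF1* lies at chr19:39385629-39391106, *CTR9* at chr11:10751246-10779746, *LEO1* at chr15:51938025-51971778 and *CDC73* at chr1:193122031-193254815. *SUPT6H* lies at chr17:28662205-28702679, *SUPT16H* at chr14:21351476-21384019, *SSRP1* at chr11:57325988-57335892 and *CDK9* at chr9:127786034-127790792. Sequences of the gRNAs to the other 5 genes were not used here, and no Score per gRNA was analysed here.

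**Figure D1:**
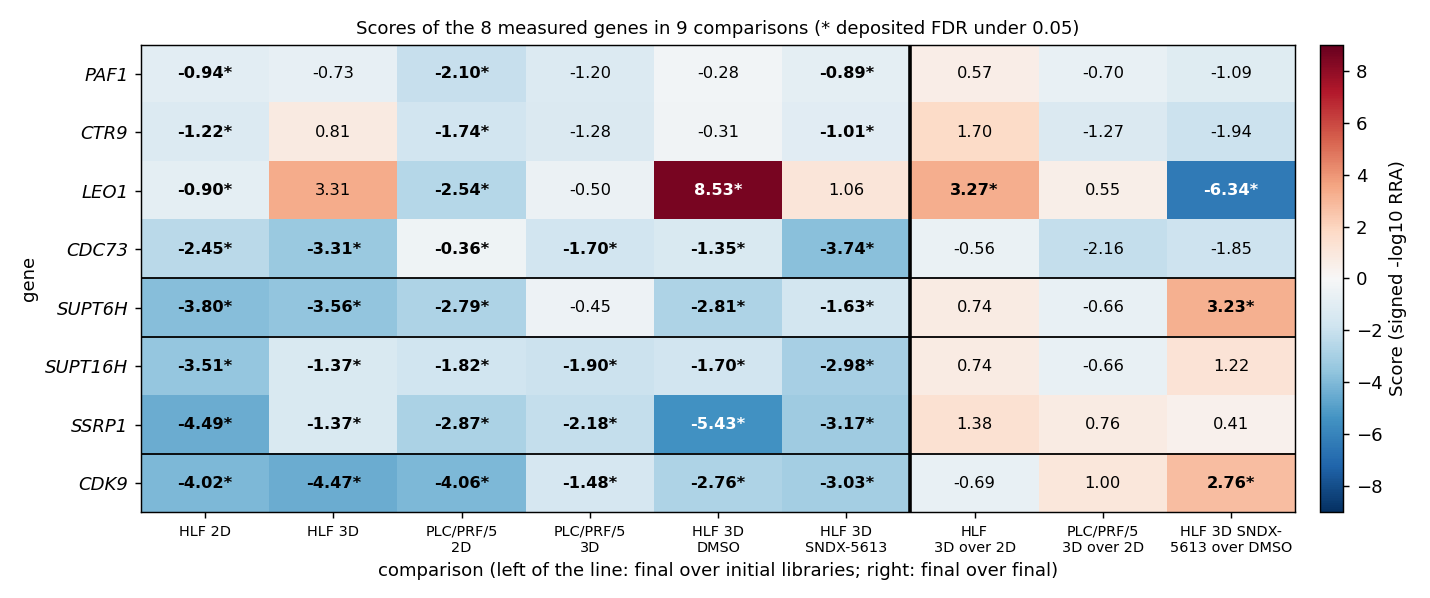
Scores of the 8 measured genes (rows) in the 9 comparisons (columns); color gives the Score and an asterisk marks a deposited FDR under 0.05. *LEO1* reached 8.53 in HLF spheroids with DMSO, whereas *CDC73*, *SUPT16H*, *SSRP1* and *CDK9* carry an asterisk and a Score below 0 in all 6 comparisons with initial libraries.

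gRNAs against the elongation factors were depleted in every screen, but not every gene was depleted in each. In HLF monolayers all 8 genes were depleted, against 68.0% of all genes, and all 8 were again depleted in PLC/PRF/5 monolayers, against 65.8%. In HLF spheroids of the format screen 5 of the 8 were depleted against 27.1% of all genes, and in PLC/PRF/5 spheroids 4 of the 8 against 23.7%. In HLF spheroids with DMSO 5 were depleted against 41.5% of all genes and 1 was enriched against 2.58%. With SNDX-5613 the count was 7, against 51.0% of all genes. At a stricter FDR under 0.01, 3 of the 8 were depleted in HLF spheroids of the format screen against 16.6% of all genes, and 1 of the 8 in PLC/PRF/5 spheroids against 14.4%.

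The monolayer calls separate the genes poorly, because in HLF monolayers each of the 501 genes with a Score below 0 was called depleted, and in PLC/PRF/5 monolayers 485 of 488 were. The size of the Score says more. In HLF monolayers the median Score of the 8 genes was -2.98, against -0.55 over all 737 genes. The PLC/PRF/5 monolayers had -2.32, against -0.57. In spheroids of the format screen the medians were -1.37 in HLF against -0.39 over all genes, and -1.38 in PLC/PRF/5 against -0.51. With DMSO the median was -1.52 against -0.45, and with SNDX-5613 it was -2.30 against -0.52.

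Depletion in all 6 comparisons with initial libraries was found for *CDC73*, *SUPT16H*, *SSRP1* and *CDK9*, which is 4 of the 8 genes, whereas 12.2% of all genes were depleted in all 6. The same 4 genes were the ones depleted in each of the 4 comparisons of the format screen, against 13.2% of all genes.

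**Figure D2:**
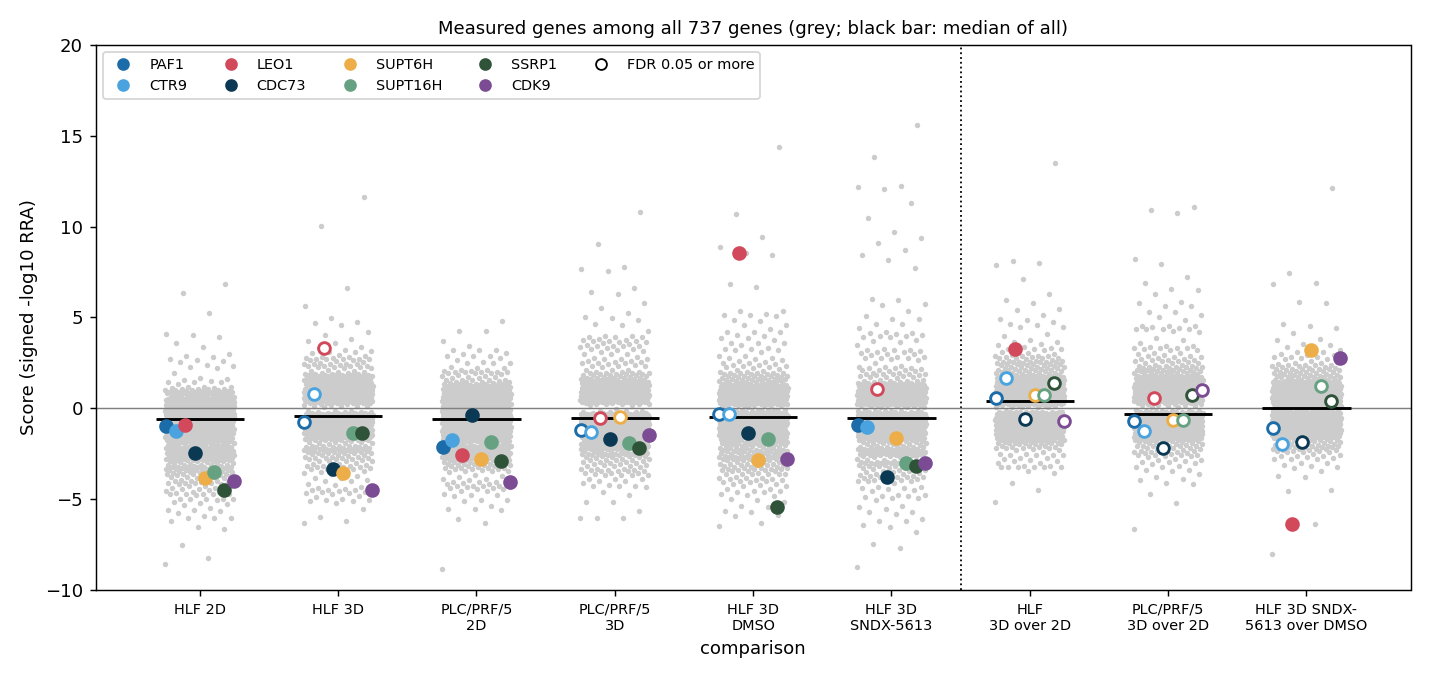
Score of each measured gene (colored points) among all 737 genes (grey points) in the 9 comparisons, with the median of all genes as a black bar; filled points have a deposited FDR under 0.05. The colored points lie mostly below the bar in the first 6 comparisons, and the exception far above it is *LEO1* at 8.53 in HLF spheroids with DMSO.

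*CDK9*, the kinase that releases paused polymerase, was depleted in all 6 comparisons. Its Scores were -4.02 in HLF monolayers, -4.47 in HLF spheroids of the format screen, -4.06 in PLC/PRF/5 monolayers, -1.48 in PLC/PRF/5 spheroids, -2.76 in HLF spheroids with DMSO and -3.03 in HLF spheroids with SNDX-5613. It was the lowest of the 8 genes in HLF spheroids of the format screen and in PLC/PRF/5 monolayers. In HLF spheroids of the format screen it ranked 20 from the lowest of 737 genes. The weakest of these Scores, in PLC/PRF/5 spheroids, passed the threshold narrowly at a deposited FDR of 0.042306.

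*SSRP1* and *SUPT16H* encode the pair of proteins that form FACT, a chaperone of histones H2A and H2B. *SSRP1* had Scores of -4.49 in HLF monolayers, -1.37 in HLF spheroids of the format screen, -2.87 in PLC/PRF/5 monolayers, -2.18 in PLC/PRF/5 spheroids, -5.43 in HLF spheroids with DMSO and -3.17 in HLF spheroids with SNDX-5613. *SUPT16H* had Scores of -3.51, -1.37, -1.82, -1.90, -1.70 and -2.98 in the same order. Both genes were depleted in each of the 6. In HLF spheroids of the format screen the FACT genes had nearly equal Scores and the same deposited FDR of 0.035058, whereas with DMSO *SSRP1* was far below *SUPT16H* and ranked 7 from the lowest of 737 genes.

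*SUPT6H* encodes SPT6, a histone chaperone that binds the polymerase itself. Its Scores were -3.80 in HLF monolayers, -3.56 in HLF spheroids of the format screen, -2.79 in PLC/PRF/5 monolayers, -0.45 in PLC/PRF/5 spheroids, -2.81 in HLF spheroids with DMSO and -1.63 in HLF spheroids with SNDX-5613. It was depleted in 5 of the 6, the exception being PLC/PRF/5 spheroids with a deposited FDR of 0.450188. There it stood next to the middle of all genes and above the other 7.

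Of the PAF1 complex, *CDC73* was the only measured subunit depleted in all 6 comparisons. It encodes parafibromin, a known tumor suppressor of the parathyroid. Its Scores were -2.45 in HLF monolayers, -3.31 in HLF spheroids of the format screen, -0.36 in PLC/PRF/5 monolayers, -1.70 in PLC/PRF/5 spheroids, -1.35 in HLF spheroids with DMSO and -3.74 in HLF spheroids with SNDX-5613. The Score of -0.36 was called at a deposited FDR of 0.001518 although 58.3% of all genes ranked lower in that screen. In HLF spheroids of the format screen and with SNDX-5613 *CDC73* was among the 44 lowest genes.

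*PAF1*, which names the complex, and *CTR9*, its scaffold, had weaker Scores, which were called mainly in monolayers. *PAF1* had Scores of -0.94 in HLF monolayers, -0.73 in HLF spheroids of the format screen, -2.10 in PLC/PRF/5 monolayers, -1.20 in PLC/PRF/5 spheroids, -0.28 in HLF spheroids with DMSO and -0.89 in HLF spheroids with SNDX-5613. *CTR9* had Scores of -1.22, 0.81, -1.74, -1.28, -0.31 and -1.01 in the same order. Each was depleted in both monolayer screens and in the spheroids with SNDX-5613, and in none of the other 3 comparisons. The *CTR9* Score above 0 in HLF spheroids of the format screen was not called.

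*LEO1*, the subunit that pairs with PAF1 and contacts histones, ran the other way in HLF spheroids. Its Scores were -0.90 in HLF monolayers, 3.31 in HLF spheroids of the format screen, -2.54 in PLC/PRF/5 monolayers, -0.50 in PLC/PRF/5 spheroids, 8.53 in HLF spheroids with DMSO and 1.06 in HLF spheroids with SNDX-5613. It was depleted in both monolayer screens and enriched in HLF spheroids with DMSO at a deposited FDR of 0.000456, where only 4 genes ranked higher. In HLF spheroids of the format screen it ranked 15 from the highest, against a deposited FDR of 0.464644. Calls there were unequal by direction: the weakest gene called depleted had a Score of -1.21 and the weakest called enriched had 4.58, and only 1.09% of genes were called enriched. *LEO1* in PLC/PRF/5 spheroids was near the median of all genes.

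*LEO1* varied more between screens than any other of the 8 genes. Its range over the 6 comparisons was 11.06, which ranked 13 among 737 genes with a median range of 2.73. The ranges of the other 7 ran from 1.82 for *PAF1* to 4.07 for *SSRP1*. In HLF spheroids with DMSO the gap between *LEO1* and *PAF1*, the next highest, was 8.81, whereas PAF1 complex subunits other than *LEO1* lay between -1.35 and -0.28. With *LEO1* left out, the median of the 3 remaining subunits was -0.31 there and -0.73 in HLF spheroids of the format screen.

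The HLF spheroids of the format screen and those with DMSO show how far a Score can move in HLF without a change of line or format. The difference, DMSO of the inhibitor screen minus the format screen, was 5.22 for *LEO1* and -4.07 for *SSRP1*, or 3.48 and -2.71 times the SD over all genes. Those sizes ranked 4 and 11 among 737 genes. *CDC73* moved by 1.96 and *CDK9* by 1.71, also above 1 SD, while the other 4 genes stayed within it. All 5 genes that were depleted in HLF spheroids of the format screen were depleted with DMSO as well. Vehicle, screen and library differences cannot be told apart here.

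**Figure D3:**
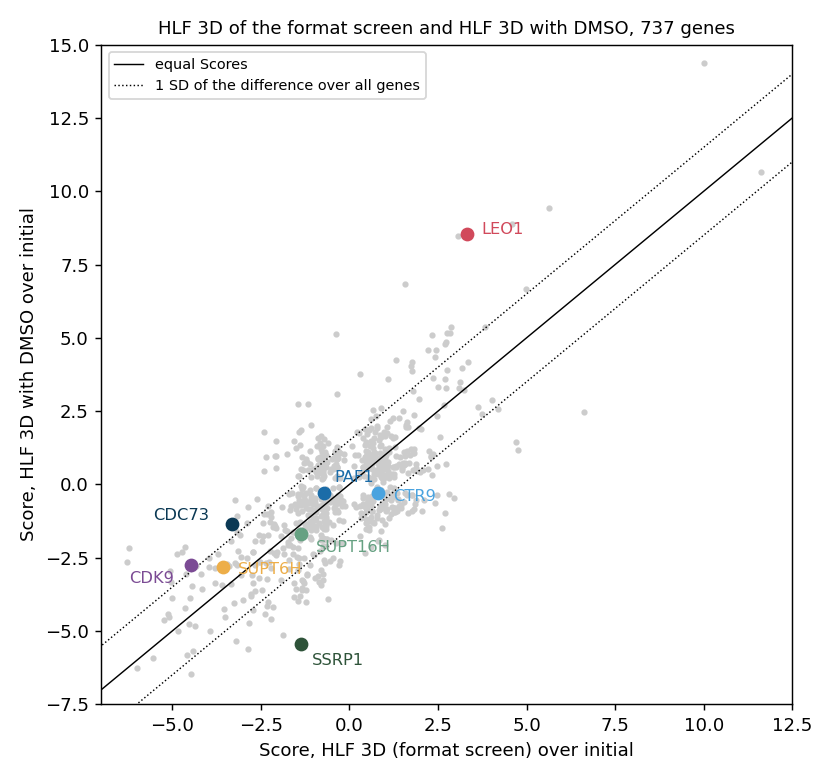
Score in HLF spheroids of the format screen over initial (x axis) against Score in HLF spheroids with DMSO over initial (y axis) for 737 genes (grey), with the 8 measured genes labeled; the solid line marks equal Scores and the dotted lines 1 SD (1.50) of the difference over all genes. *LEO1* lies 5.22 above the solid line and *SSRP1* 4.07 below it.

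Most gaps between neighbors in the order of the 8 genes were within this yardstick. The 7 gaps divide a range, which was 3.59 in HLF monolayers and 1.73 in PLC/PRF/5 spheroids, so most had to be small. They do not show whether genes further apart were resolved. The SD describes the same gene in different HLF spheroid screens, and neither monolayers nor PLC/PRF/5 had such a repeat. In HLF monolayers, PLC/PRF/5 monolayers and PLC/PRF/5 spheroids, 0 of the 7 gaps between neighbors exceeded 1 SD. In HLF spheroids of the format screen 3 of the 7 did, in HLF spheroids with DMSO 2 did, and in HLF spheroids with SNDX-5613 1 did. In all 3 HLF spheroid comparisons the largest gap lay just below *LEO1*.

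The factors outside the PAF1 complex (*SUPT6H*, *SUPT16H*, *SSRP1* and *CDK9*) had lower median Scores than the 4 measured subunits of it in each of the 6 comparisons. In HLF monolayers the medians were -3.91 and -1.08, and each of the 4 outside factors was below each subunit. In HLF spheroids with DMSO the medians were -2.78 and -0.29, and the 4 outside factors were again below each subunit. The medians were closest in PLC/PRF/5 spheroids, at -1.69 and -1.24, and the values overlapped. With SNDX-5613 they were -3.00 and -0.95, and 0 of the 4 outside factors were below *CDC73*, the lowest of the subunits.

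The comparisons of final libraries asked whether gRNAs differed between spheroid and monolayer at day 28. A Score above 0 here means more abundant in 3D. These comparisons use the same final libraries as the Scores above. In HLF, 1 of the 8 genes was higher in 3D, against 12.2% of all genes, and 0 of the 8 were lower, as for all 737 genes. That gene was *LEO1*, with a Score of 3.27 and a deposited FDR of 0.003528, which ranked 28 from the highest. *CTR9* came next with 1.70 and an FDR of 0.081911, and the other 6 lay between -0.69 and 1.38. In PLC/PRF/5, 0 of the 8 genes were higher in 3D against 7.06% of all genes, and 0 were lower against 0.136%. Scores there ran from -2.16 for *CDC73*, which ranked 46 from the lowest, to 1.00 for *CDK9*, and *LEO1* had 0.55. For *PAF1*, *CTR9* and *SUPT6H* the Scores of this comparison were -0.70, -1.27 and -0.66, whereas the differences of their Scores over initial libraries were above 0, at 0.90, 0.46 and 2.34. A test of the difference between the lines was not possible from 1 Score per line. The PLC/PRF/5 columns for monolayer and spheroid carry different tags in the deposited table, and whether the formats were screened in separate runs is not stated.

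The comparison of SNDX-5613 with DMSO in HLF spheroids asked which knockouts changed the outcome of menin inhibition. *LEO1* was lower with SNDX-5613, against 0.543% of all genes, and *SUPT6H* and *CDK9* were higher, against 4.07% of all genes. *LEO1* had a Score of -6.34 and a deposited FDR of 0.001825, the second lowest of 737 genes. The *LEO1* Score over initial libraries was 8.53 with DMSO and 1.06 with SNDX-5613, and the second of these was not called, so *LEO1* gRNAs were not depleted from the start of the screen in the SNDX-5613 arm. The contrast is with a DMSO Score that was 5.22 above that of HLF spheroids of the format screen. There *LEO1* had 3.31 and was not called, so its low direct Score may depend on this DMSO arm, which was not tested. *CTR9*, *CDC73* and *PAF1* had Scores of -1.94, -1.85 and -1.09, none of them called. The differences of their Scores over initial libraries were -0.71, -2.39 and -0.61. *CDC73* had -3.31 in HLF spheroids of the format screen, -1.35 with DMSO and -3.74 with SNDX-5613. Its direct Score may therefore also depend on this DMSO arm, which was not tested. From the lowest of 737 genes *LEO1* ranked 2, *CTR9* 53, *CDC73* 56 and *PAF1* 161, and 21.7% of the other genes were below *PAF1*. The median of the subunits was -1.89 with *LEO1* and -1.85 without it, against 0.05 over all genes.

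The 4 factors outside the complex lay on the other side of 0. *SUPT6H* had 3.23 at a deposited FDR of 0.014384, and its Scores over initial libraries were -2.81 with DMSO and -1.63 with SNDX-5613. *CDK9* had 2.76 at 0.032426, but its Scores over initial libraries were -2.76 and -3.03, a difference of -0.27 in the opposite direction. *SUPT16H* and *SSRP1* had 1.22 and 0.41 and were not called. For *SUPT16H* too the direct Score and the difference of -1.28 between the Scores over initial libraries had opposite signs. The median of the 4 was 1.99. The direction for *CDK9* and *SUPT16H* therefore rests on which libraries were compared.

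**Figure D4:**
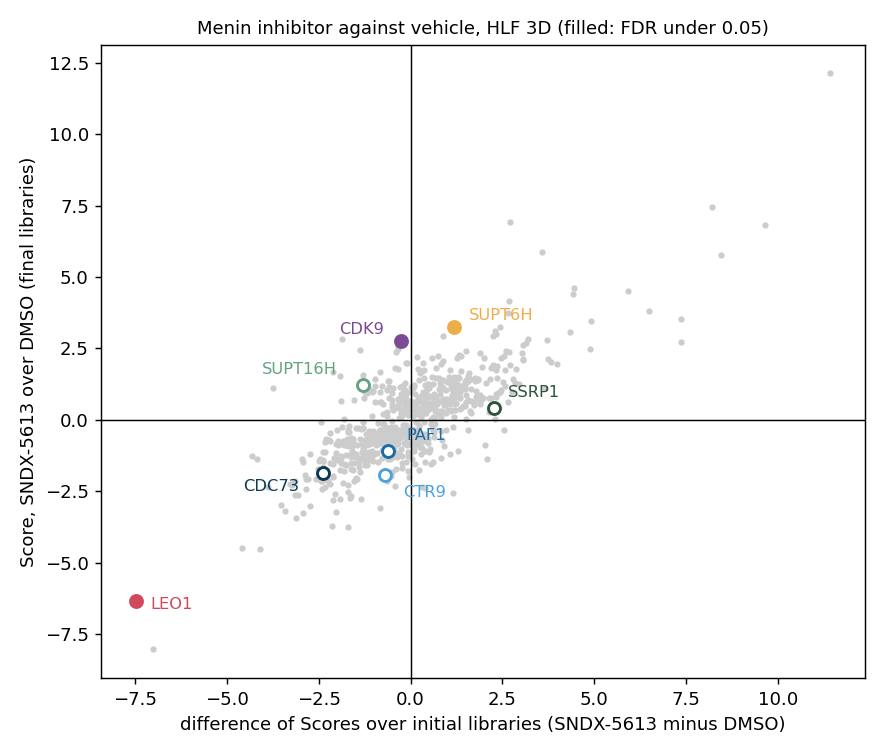
Difference of the Scores over initial libraries, SNDX-5613 minus DMSO (x axis), against the Score of the direct comparison of final libraries (y axis), for 737 genes (grey) in HLF spheroids of the inhibitor screen; labeled points are the 8 measured genes and filled ones have a deposited FDR under 0.05. *LEO1* is far in the lower left at -6.34, and *CDK9* (2.76) and *SUPT16H* (1.22) lie left of 0 but above it.

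Enzymes and readers that work with these factors were taken from 5 lists with 18 genes, all of them measured. In HLF monolayers 14 of the 18 were depleted, against 68.0% of all genes, and in PLC/PRF/5 monolayers 13, against 65.8%. In HLF spheroids of the format screen 3 were depleted, against 27.1%, and in PLC/PRF/5 spheroids 4, against 23.7%. In HLF spheroids with DMSO the count was 9, against 41.5%, and with SNDX-5613 it was 12, against 51.0%. Their median Scores were -0.91, -0.82, 0.22, -1.05, -0.61 and -0.82 in that order. The medians over all genes were -0.55, -0.57, -0.39, -0.51, -0.45 and -0.52. At an FDR under 0.01, 8 of the 18 were depleted with SNDX-5613, against 36.2% of all genes.

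The 5 genes of H2B ubiquitination, the step downstream of the PAF1 complex, were below 0 in HLF monolayers, apart from *UBE2B*, and above 0 in HLF spheroids without SNDX-5613. RNF20 and RNF40 form the ubiquitin ligase, UBE2A and UBE2B are its conjugating enzymes, and WAC is its adaptor. In HLF monolayers 4 of the 5 were depleted, against 68.0% of all genes, and the median was -2.19. In HLF spheroids of the format screen 0 of the 5 were depleted, against 27.1% of all genes. There all 5 Scores were above 0, with a median of 1.14, but 0 were called enriched. With DMSO the 5 Scores were again above 0, with a median of 1.79, and *WAC* alone was called enriched, against 2.58% of all genes. The *WAC* Scores were -5.20 in HLF monolayers, 2.71 in HLF spheroids of the format screen, -4.55 in PLC/PRF/5 monolayers, 0.92 in PLC/PRF/5 spheroids, 4.86 in HLF spheroids with DMSO and 1.33 in HLF spheroids with SNDX-5613. In PLC/PRF/5 monolayers 4 of the 5 were depleted, against 65.8% of all genes, and the median was -1.83. In PLC/PRF/5 spheroids 3 of the 5 were above 0 and 2 below it, *RNF20* at -1.25 and *RNF40* at -0.84, and 0 were called. In HLF 3D over 2D, *WAC* at 4.87 (deposited FDR 0.000203) and *RNF40* at 2.78 (deposited FDR 0.01563) were higher, against 12.2% of all genes. In PLC/PRF/5 3D over 2D 0 of the 5 were called. In HLF spheroids with SNDX-5613, 3 of the 5 Scores over initial libraries were below 0. *RNF40* alone was depleted there, at -0.72 (deposited FDR 0.021864), against 51.0% of all genes. For SNDX-5613 over DMSO the 5 Scores ran from -2.97 for *WAC* to -0.36 for *UBE2B*, and none was called. *UBE2B*, the highest of the list in both monolayer screens, had 0.44 in HLF monolayers and 1.31 in PLC/PRF/5 monolayers.

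Both partners of pause release were depleted over initial libraries in every comparison but 1, PLC/PRF/5 monolayers. The shares of all genes depleted ran from 23.7% in PLC/PRF/5 spheroids to 68.0% in HLF monolayers. *CDK7*, the kinase of TFIIH, was depleted in all 6 comparisons, with Scores between -4.44 in HLF monolayers and -2.65 in HLF spheroids of the format screen. *MLLT1*, a subunit of the super elongation complex, was not called in PLC/PRF/5 monolayers, at 0.69. Its Score of -0.26 in HLF monolayers was called although 59.8% of the other genes ranked lower there. For SNDX-5613 over DMSO 0 of the 18 genes were called, against 4.6% of all genes in either direction.

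H3K36 methylation is the mark that SETD2 lays down behind the polymerase. Of the 6 genes tied to it, 4 were depleted in HLF monolayers against 68.0% of all genes. In HLF spheroids of the format screen 0 were depleted against 27.1%, with DMSO 4 against 41.5%, and with SNDX-5613 6 against 51.0%. The median Score was -1.41 with DMSO and -1.15 with SNDX-5613. With SNDX-5613 the Scores ran from -1.71 for *GLYR1* to -0.73 for *SETD2*. Of the H3K79 methyltransferase *DOT1L* and its cofactor *MLLT10*, *DOT1L* had -2.85 in PLC/PRF/5 monolayers and 1.78 in PLC/PRF/5 spheroids, the second of them not called. In HLF *DOT1L* was depleted in monolayers (-0.71), with DMSO (-1.39) and with SNDX-5613 (-0.86). It was not called in HLF spheroids of the format screen (-1.05). *MLLT10* was depleted in PLC/PRF/5 monolayers (-0.15) and with SNDX-5613 (-2.11), and in no other of the 6 comparisons. Of the 3 remodelers linked to transcription, *CHD2* was depleted in all 6 comparisons, against 12.2% of all genes, from -3.30 with SNDX-5613 to -0.31 in HLF monolayers. The Score of -0.31 was called although 58.3% of the other genes ranked lower there. *CHD1* had its lowest Score, -2.92, in HLF monolayers and its highest, 1.56, with SNDX-5613, and *ERCC6* was called in HLF monolayers alone, at -0.15.

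**Figure D5:**
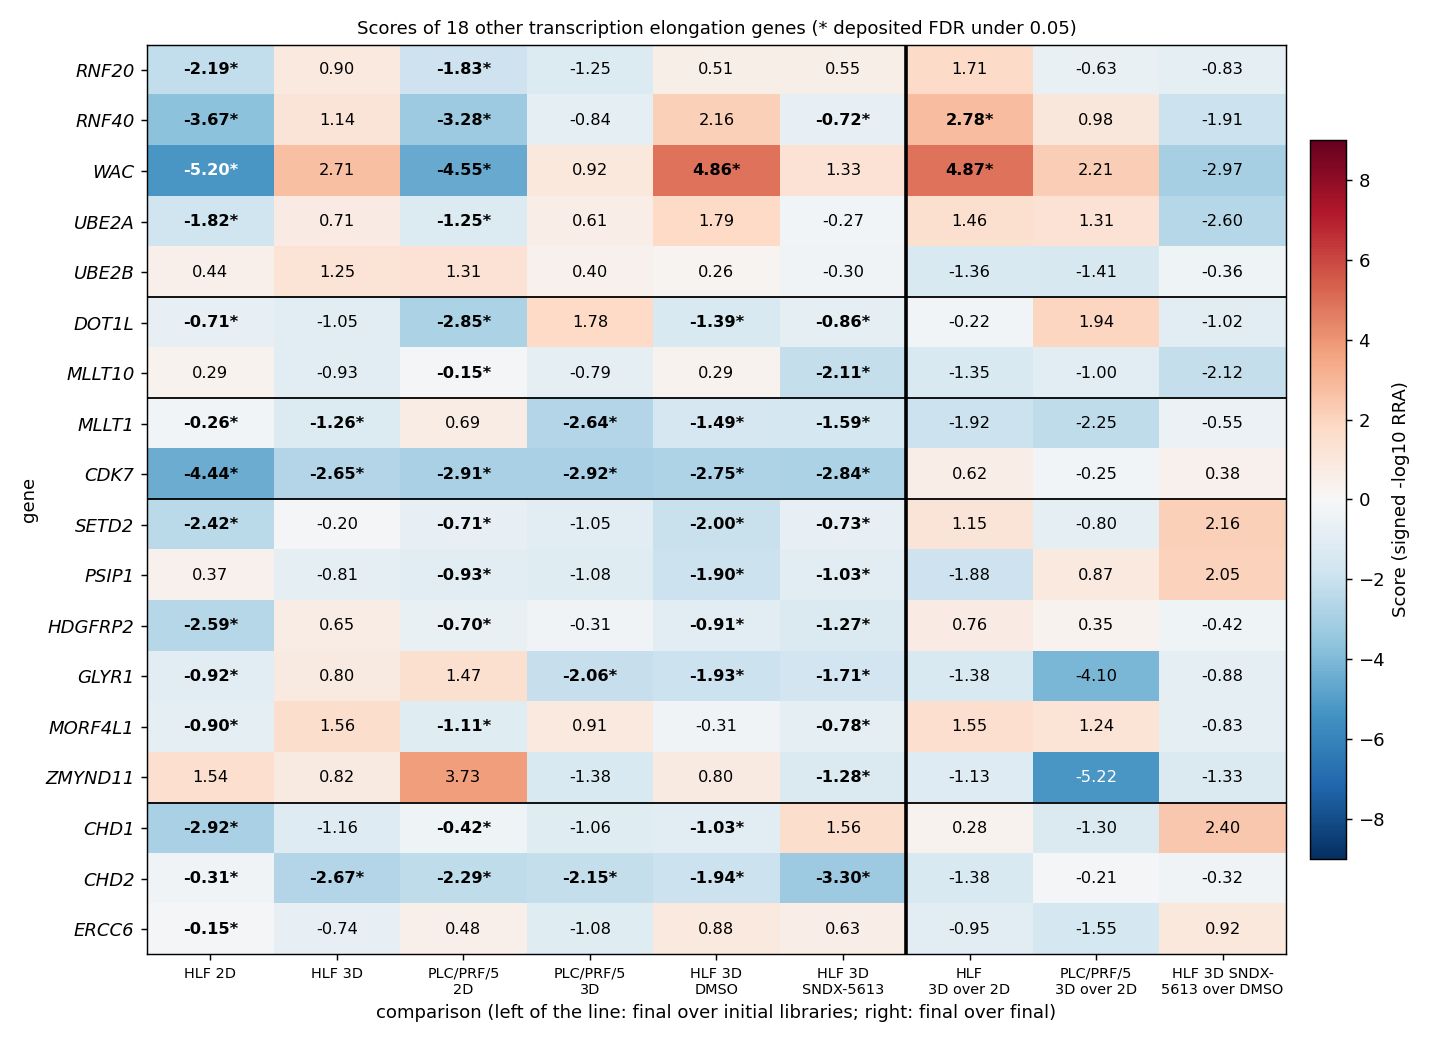
Scores of the 18 pathway genes (rows, grouped by list) in the 9 comparisons (columns); color gives the Score and an asterisk marks a deposited FDR under 0.05. The top 5 rows, the H2B ubiquitination genes, change from mostly below 0 in HLF monolayers (median -2.19) to above 0 in HLF spheroids of the format screen (median 1.14), whereas *CDK7* and *CHD2* stay below 0 with an asterisk in all 6 comparisons with initial libraries.

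The 8 genes were not close to one another as a set. Over the 6 comparisons with initial libraries, the median Euclidean distance between the 28 pairs among them was 5.15, equal to the 5.15 over all 271216 pairs of genes. Without *LEO1* it was 4.35 over 21 pairs. *LEO1* lay at least 9.49 from each of the other 7, and its nearest gene of all was *EPC2* at 4.81, with 2.76 in HLF spheroids of the format screen and 5.15 in HLF spheroids with DMSO. The nearest genes to the others were *SET* for *PAF1* at 0.91, *NBN* for *CTR9* at 0.77 and *CHD4* for *CDC73* at 1.50. *BAP1* was nearest to both *SUPT6H* at 1.14 and *CDK9* at 1.39, *YEATS2* to *SUPT16H* at 0.75 and *NAT10* to *SSRP1* at 1.17. The 5 genes nearest to the median profile of the 8 were *HJURP* at 1.18, *IKBKAP* at 1.22, *E2F6* at 1.26, *MAX* at 1.26 and *CLNS1A* at 1.30. These names depend on the measure: by Pearson correlation 0 of the 5 were shared, and by distance over the 4 comparisons of the format screen 1 was. These 6 points per gene share libraries and are a description.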

How the data were processed

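The data were 30 gRNA amplicon libraries from HLF and PLC/PRF/5 cells, in 10 groups of 3. Per the labels and the study's methods, the authors counted gRNAs and compared libraries with MAGeCK, using non-targeting gRNAs as controls. The MAGeCK version is not given in the sources used here, nor is the genome build. For 737 genes and 9 comparisons, the deposited table holds a signed robust rank aggregation score and an FDR, which is a p-value adjusted over genes by the authors' tool. It holds no gRNA counts, and counts per library were not analysed here, so depth, counting error and replicate spread are unknown here, and no test was refitted. Genes were called at a deposited FDR under 0.05.

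Columns named 2D against 3D were read as 3D over 2D, because across genes they followed the difference of the Scores with r = 0.883 in HLF and r = 0.879 in PLC/PRF/5. SNDX-5613 over DMSO followed its difference with r = 0.777. Medians, ranks, shares, distances and the SD between the HLF spheroid comparisons were computed in Python 3.11.15 with pandas 2.3.3 and numpy 2.4.6, and plots were drawn with matplotlib 3.10.9. The scripts were tested on simulated data. The gRNA sequences came from the study's supplementary table and were matched exactly to hg38, with exons from GENCODE release 44. A cut was placed 3 bases from the PAM.

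Members and gene lists were chosen with earlier results of these data known. All members are named in all comparisons. Of the pathway lists, the genes named are those enriched, those depleted in each of the 4 comparisons of the 2D and 3D format screen, and the lowest and highest of a list, plus genes added after their values were seen. The 5 genes nearest to the median profile and the 1 nearest to each member are also named. Alternatives were another FDR threshold, a minimum Score size, the mean or percentile in place of the median, subsets of the members, the difference of Scores in place of the direct comparison, and other measures of likeness. Leaving out *LEO1* was chosen after seeing the data. A further pathway gene is not reported here.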

Additional observations from a re-analysis of the deposited data

How the results depend on the processing

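Of 96 alternative values for 46 results, 80 held and 16 moved further. A Score or median held if it moved by less than 1.50, and a count if it stayed within 1.5 times. A percentile held if it kept its side of the median of all genes. The 1.50 is the SD over all genes of the difference between the HLF spheroid screens. It describes Scores of single genes, so it is a wide bar for a median of several genes. Counting small moves too, 9 values changed sign. For SNDX-5613 over DMSO the difference of Scores over initial libraries was -0.27 in place of 2.76 for *CDK9*, the only called value to change sign, and -1.28 in place of 1.22 for *SUPT16H*. There it was also 1.18 for *SUPT6H* and 2.27 for *SSRP1*. In PLC/PRF/5 3D over 2D it was 0.90 in place of -0.70 for *PAF1*, 0.46 in place of -1.27 for *CTR9* and 2.34 in place of -0.66 for *SUPT6H*, and 2.58 for *CDK9* with the same sign. In HLF 3D over 2D it was 3.13 for *SSRP1*. The cause was not tested. The median of the 8 genes for SNDX-5613 over DMSO was -0.34, and 0.41 without *LEO1*. There the PAF1 complex alone had -1.89 and the factors outside it 1.99. The PAF1 complex alone had -1.08 in HLF monolayers and 0.04 in place of -1.37 in HLF spheroids of the format screen. The factors outside it had 0.05 in place of -0.66 in PLC/PRF/5 3D over 2D. At an FDR under 0.01, 3 of the 8 genes were depleted in HLF spheroids of the format screen and 1 in PLC/PRF/5 spheroids. Of the 5 genes nearest to the median profile, 0 were shared by Pearson correlation and 1 by distance over 4 comparisons. No paired analysis was possible because the table used here holds 1 value per gene and comparison, so no replicate was left out, and counts per library were not analysed here.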

Other observations

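In PLC/PRF/5, 2 of the 6 genes tied to H3K36 methylation, chosen after their values were seen, had low Scores in the 3D over 2D comparison. *ZMYND11*, which binds the modified histone variant H3.3, had a Score of -5.22, the second lowest of 737 genes, and a deposited FDR of 0.082117. Its Scores over initial libraries were 3.73 in PLC/PRF/5 monolayers and -1.38 in PLC/PRF/5 spheroids. *GLYR1*, which assists the polymerase through nucleosomes, had -4.10, ranked 5 from the lowest, with a deposited FDR of 0.29562, and its Scores over initial libraries were 1.47 in 2D and -2.06 in 3D. Neither was called. The list they come from had a median of -0.23, near the -0.29 over all genes, and other readers in it were above 0 in PLC/PRF/5, at 1.24 for *MORF4L1*, 0.87 for *PSIP1* and 0.35 for *HDGFRP2*. In HLF 3D over 2D the Scores were -1.13 for *ZMYND11* and -1.38 for *GLYR1*, also not called.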
